A study of Homo sapiens with 6 samples.

Results

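The HOX cluster genes are the homeobox genes that sit side by side in the HOXA, HOXB, HOXC and HOXD clusters. They were taken as every row of the raw count table whose symbol is HOX, then A, B, C or D, then a number, which gave 39 of 26364 genes. HOXA has 11 of them on chromosome 7, HOXB 10 on chromosome 17, HOXC 9 on chromosome 12 and HOXD 9 on chromosome 2. The libraries are poly(A)-selected RNA-seq of Ishikawa cells, an established human line from an endometrioid adenocarcinoma of the uterus. The study removed ETV4, a transcription factor of the ETS family, and asked what this does to gene expression with and without estrogen. There were 3 lines, the parental (wild-type) Ishikawa line and the ETV4 knockout clones 1 and 2, each of which is 1 clone. Every line gave 1 library in vehicle (0.1% DMSO) and 1 in 10 nM 17β-estradiol (E2). All cells had spent 5 days in hormone-depleted medium before this. The treatment time is 8 h in the protocols and 1 h in the sample characteristics. The parental groups therefore have n = 1 and the knockout groups n = 2 clones, and p-values measure the spread between these libraries, which may be partly technical.

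HOX proteins are homeodomain transcription factors that give cells their position along the head-to-tail axis. Within a cluster the genes lie in the order in which they act along that axis, and genes at the same place in different clusters form a paralog group that carries the same number. In the female reproductive tract the posterior HOXA genes are laid out in order, with HOXA9 in the oviduct, HOXA10 in the uterus, HOXA11 in the lower uterus and cervix, and HOXA13 in the vagina. HOXA10 and HOXA11 stay active in the adult endometrium, respond to sex steroids and are needed for implantation. Polycomb complexes keep HOX genes silent, trithorax-type complexes keep them active, and cofactors such as the MEIS and PKNOX proteins bind DNA together with them.

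Library totals ran from 28037392 to 36829479 counts. The targeted gene ETV4 gave 586 (DMSO) and 1063 (E2) counts for the parental line, 122 and 86 for clone 1 and 71 and 81 for clone 2, so its level sorts the libraries by genotype as labelled. The 8 epithelial markers together stood at 2498 to 3449 CPM (counts brought to a common library size with TMM factors). EPCAM, PAX8 and ESR1 were above 100 CPM in every library, and MUC1 was the lowest marker at 3.46 to 7.03 CPM. Leukocyte markers summed to 0.101 to 0.376 CPM, and the endothelial markers PECAM1 and CDH5 were at or near 0. The other endothelial marker, VWF, had 48 and 87 counts in the parental line and 142, 89, 98 and 75 in the clones, a log2 difference of 0.70 that did not pass (adjusted p = 0.440 in edgeR's quasi-likelihood test). Of the 6 stromal markers, which summed to 46.4 to 87.9 CPM, DCN and LUM were near 0 in all libraries, PDGFRA had 3 to 16 counts and COL1A1 stood at 44.8 to 75.2 CPM. COL3A1 had 236 and 364 counts in the parental line and 51, 39, 98 and 67 in the clones, and VIM had 108 and 95 against 0, 0, 1 and 0. The parental DMSO library had the lowest TMM factor, 0.899 against 1.01 to 1.05 in the other 5. Scaling by total counts alone therefore moved the median log2 difference of all genes between knockout and parental libraries from 0.01 to 0.11.

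HOXB and HOXD supplied most of the HOX transcripts in these cells, and HOXC supplied almost none. Summed over its genes, HOXB stood at 228, 193, 230, 213, 292 and 220 CPM in parental DMSO, parental E2, clone 1 DMSO, clone 1 E2, clone 2 DMSO and clone 2 E2, the order used for all 6-library series. In the same order HOXD stood at 94.0, 87.0, 100.1, 96.6, 102 and 97.8 CPM. The HOXA cluster stood at 69.2, 57.8, 62.6, 57.1, 57.6 and 52.9 CPM. HOXC reached 2.86 CPM in parental DMSO and lay between 0.615 and 1.52 CPM in the other 5 libraries. The order HOXB, HOXD, HOXA, HOXC held in each of the 6 libraries, with no overlap between the ranges of the clusters. Per cluster, the mean share of all HOX counts was 59.1% for HOXB (56.9 to 64.5%), 25.0% for HOXD (22.5 to 26.4%), 15.5% for HOXA (12.7 to 17.6%) and 0.375% for HOXC (0.166 to 0.724%). Dividing each gene by its exon length left shares of 60.7%, 25.3%, 13.5% and 0.432%.

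**Figure D1:**
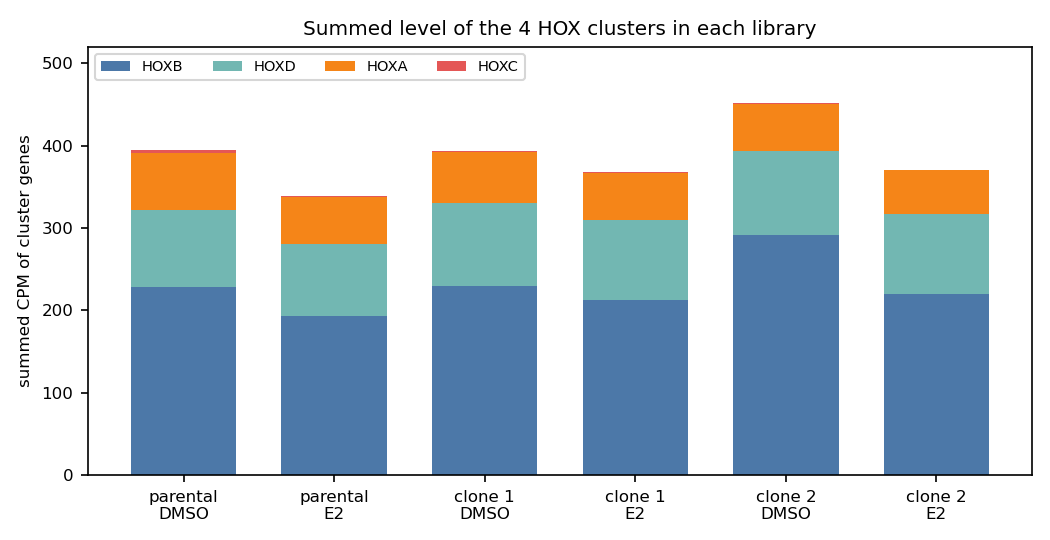
Summed CPM of the HOXA, HOXB, HOXC and HOXD genes (vertical axis, linear from 0) in each of the 6 libraries (horizontal axis), stacked. HOXB is the largest layer in every bar, at 193 to 292 CPM, and HOXC is barely visible.

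The whole set summed to 387 ± 38.1 CPM (SD over the 6 libraries). Clone 2 in DMSO was highest at 452 CPM and parental E2 lowest at 339 CPM. Each line had a lower HOX sum in E2 than in DMSO, by the step from 395 to 339 CPM in the parental line, 394 to 368 in clone 1 and 452 to 371 in clone 2. The size of the parental step depends on the scaling, as its TMM factors were 0.899 in DMSO and 1.02 in E2. Scaled by total counts alone, the parental DMSO sum is lower and the parental E2 sum higher, so most of that step goes. HOXB accounted for most of the step in clone 2, where it went from 292 to 220 CPM. With 1 library per line and treatment these sums carry no test, and in bulk RNA fewer cells that express a gene cannot be told apart from less RNA per cell.

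**Figure D2:**
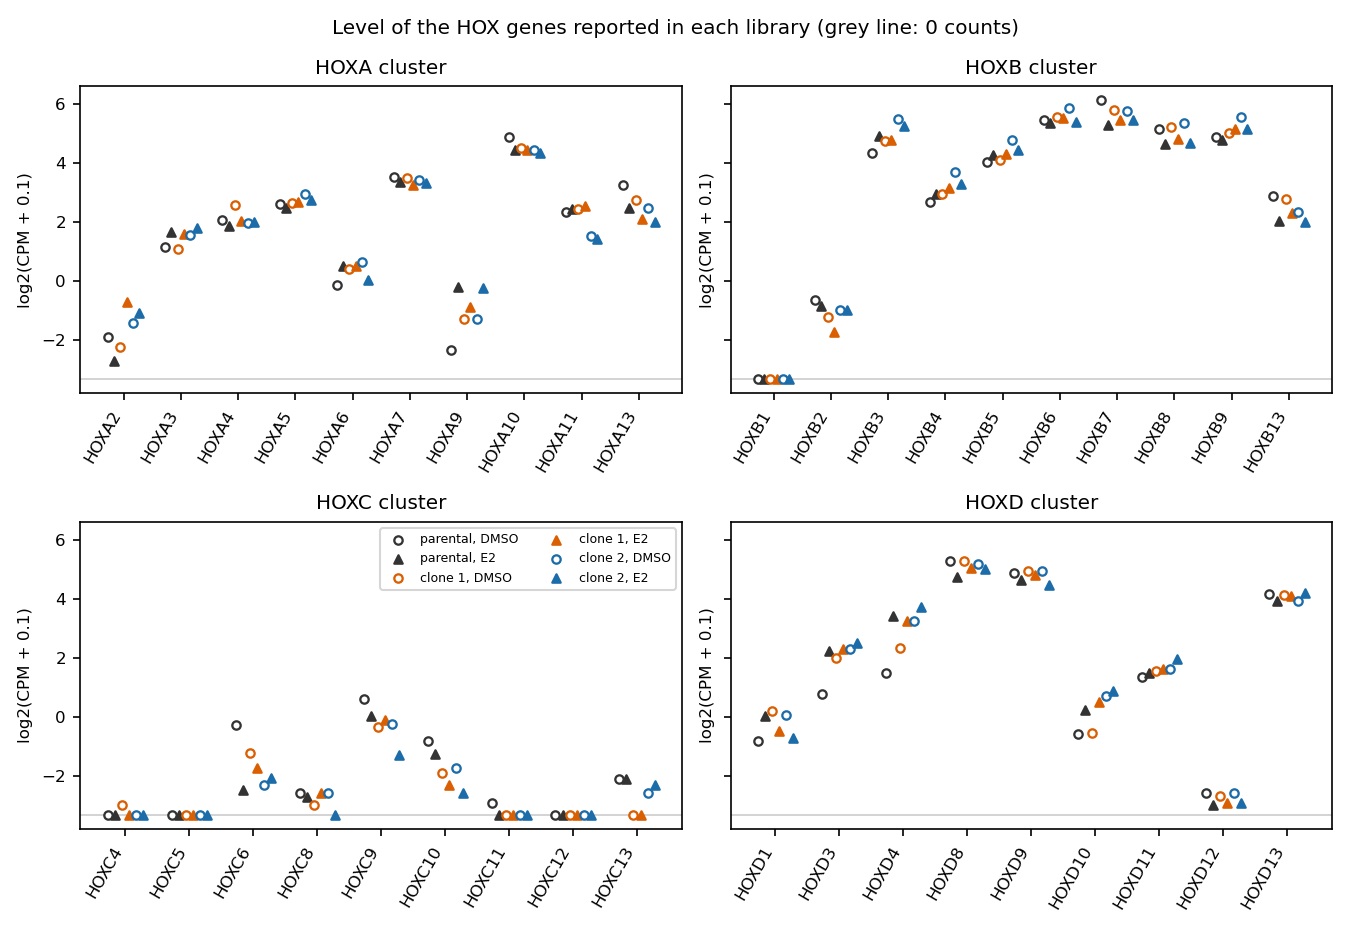
Level of the HOX genes reported as log2(CPM + 0.1) in each library, 1 panel per cluster, genes in order of paralog number (circles DMSO, triangles E2, colour for the line). The grey line marks 0 counts. HOXB3, HOXB5 to HOXB9, HOXA10, HOXD8, HOXD9 and HOXD13 have the highest mean CPM, and no HOXC gene exceeds 1.41 CPM in any library.

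Levels differed widely among the HOX genes. Per kilobase of exon, the highest were HOXB7 (37.1 CPM per kb, mean of the 6 libraries), HOXB6 (23.6), HOXB8 (17.5), HOXD9 (14.7), HOXB9 (13.4), HOXD8 (13.1) and HOXB5 (9.88). HOXD13, the most posterior HOXD gene, came next at 7.49 CPM per kb, followed by HOXA10 at 7.17. Among anterior genes, HOXB3 stood at 4.97 CPM per kb, HOXD1 at 0.384, HOXB2 at 0.251, HOXA2 at 0.138 and HOXB1 at 0. Low levels also occurred further along, with HOXA9 at 0.217 and HOXC8 at 0.0252 CPM per kb. These genes were picked as examples, and no test of level against position was made. Against the 14607 tested genes with an exon length, HOXB7 lay at the 88.1th percentile of CPM per kb, HOXA10 at the 52.7th and HOXA11 at the 29.5th. The most abundant member by CPM was HOXA10 in HOXA, HOXB7 in HOXB, HOXC9 in HOXC and HOXD8 in HOXD.

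A filter on low counts kept 31 of the 39 genes for testing, all 11 of HOXA, 9 of HOXB, 3 of HOXC (HOXC6, HOXC9 and HOXC10) and 8 of HOXD. HOXB1, HOXC5 and HOXC12 had 0 counts in every library, where each count of 0 allows up to 3 counts per library, as counting error only. HOXC4 and HOXC11 had 1 count in all 6 libraries together, HOXC8 and HOXD12 had 9 each and HOXC13 had 14. HOXC9, the strongest HOXC gene, stood at 1.41, 0.935, 0.698, 0.823, 0.751 and 0.307 CPM. Its parental libraries were the highest and the clones did not overlap them, on 42 and 35 counts against 9 to 25. HOXC6 had 22 counts in parental DMSO and 3 to 12 in each other library.

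HOXA10, the uterine identity gene, was the leading HOXA gene, and its highest library stood at 1.46 times its lowest. HOXA7 (1.20) and HOXA5 (1.37) had smaller ratios, and the other HOXA genes reported had larger ones. It stood at 29.04, 21.5, 22.7, 21.4, 21.4 and 19.9 CPM, on 581 to 864 counts. Parental DMSO was the highest library and the other 5 lay within 19.9 to 22.7 CPM. In the clones it averaged 22.0 ± 0.886 CPM in DMSO and 20.6 ± 1.06 CPM in E2 (SD, n = 2). HOXA11, which marks the lower uterus, was lower and split by line, at 4.94, 5.34, 5.39, 5.72, 2.80 and 2.60 CPM. Both clone 2 libraries (82 and 76 counts) lay below the other 4 (147 to 200 counts). Per kilobase HOXA10 stood at 6.29 to 9.20 CPM and HOXA11 at 1.13 to 2.49, so their ranges did not overlap. Among the neighbours that mark other segments of the tract, HOXA9 had just 3, 29, 11, 13, 9 and 22 counts, and HOXA13 stood at 9.38, 5.42, 6.59, 4.22, 5.46 and 3.86 CPM. Per kilobase, the vaginal gene HOXA13 (1.16 CPM per kb) was below HOXA10 and close to HOXA11 (1.95), and the oviduct gene HOXA9 was at 0.217. By mean CPM HOXA13 (5.82) was above HOXA11 (4.47), so the order of HOXA13 and HOXA11 depends on the exon lengths used.

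The 300 bases around the start sites of HOXA10 and HOXA11 are shown because ETV4 binds DNA through an ETS domain, whose core site holds GGAA. They are from RefSeq (GRCh38.p14), 250 bases before to 50 after the start, on the minus strand, at chr7:27179812-27180111 for HOXA10 and chr7:27185183-27185482 for HOXA11. Capitals mark CGGAAG on either strand (CTTCCG on the strand shown), a part of the longer ETS consensus CCGGAAGT, and the motif was chosen after the sequences had been seen.
HOXA10: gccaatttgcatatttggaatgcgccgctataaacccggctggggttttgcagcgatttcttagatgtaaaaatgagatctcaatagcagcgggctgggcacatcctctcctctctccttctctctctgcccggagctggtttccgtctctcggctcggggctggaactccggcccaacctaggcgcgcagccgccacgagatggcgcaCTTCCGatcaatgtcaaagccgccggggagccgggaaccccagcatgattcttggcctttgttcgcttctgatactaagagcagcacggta
HOXA11: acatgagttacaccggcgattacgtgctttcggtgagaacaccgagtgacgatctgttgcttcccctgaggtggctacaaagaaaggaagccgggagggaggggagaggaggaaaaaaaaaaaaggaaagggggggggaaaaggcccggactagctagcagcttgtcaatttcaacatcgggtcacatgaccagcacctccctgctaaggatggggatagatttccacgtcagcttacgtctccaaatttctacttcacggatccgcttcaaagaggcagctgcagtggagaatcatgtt
The HOXA10 window shown holds 1 match and the HOXA11 window none. The table lists a second start site for HOXA10, whose window at chr7:27174271-27174570 is not shown and holds no match. Of all 35116 promoter windows in the same table, 19.5% hold CGGAAG on 1 strand or the other, 4.14% hold CCGGAAGT and 95.5% hold GGAA. Of the 27 windows listed for 20 of the 39 HOX genes, 2 hold CGGAAG, 24 hold GGAA, and none holds CCGGAAGT or the palindromic estrogen response element, which 0.057% of all windows hold. HOXC4 and HOXC5 are listed with the same window, which holds GGAA and is counted for each, and HOXA3 has several windows. A match of letters does not show binding.

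The first comparison asked which HOX genes differed between the 4 knockout libraries and the 2 parental ones, with treatment in the model. That model had no term for line, so libraries of the same line entered it as independent. None of the 31 tested genes was called, where 0.327% of all 15611 genes were (51), by an adjusted p under 0.05 in the quasi-likelihood test of edgeR with Benjamini-Hochberg adjustment. DESeq2 and limma-voom also called none, where they called 2.95% and 0.365% of all genes, and so did limma-voom with line as a random replicate block (0.295%). At an unadjusted p below 0.05 in edgeR there were 2, HOXA13 and HOXC10, both lower in the clones, against 11.4% of all genes (4.82% lower). The tested HOX genes had a median log2 difference of 0.11, against 0.01 over all genes, and 20 of the 31 were above 0 (22 with total-count scaling), against 51.7% of all genes. By cluster the median was 0.11 for HOXA, 0.19 for HOXB, 0.19 for HOXD and -0.85 for the 3 tested HOXC genes. The stromal marker VIM, a mesenchymal intermediate filament, was called lower in the clones, as 1 of 4 tested stromal markers. COL3A1, a fibrillar collagen, differed by -2.09 without passing (adjusted p = 0.117 in edgeR's quasi-likelihood test), and the part of these markers in the HOX values was not tested.

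HOXA10 differed by -0.23 on the log2 scale (SE 0.14, adjusted p = 0.522 in edgeR's quasi-likelihood test, Benjamini-Hochberg adjusted), with both clones below the parental line in both treatments. The step was larger in DMSO, where the parental line stood at 29.04 CPM against 22.7 and 21.4 in the clones, than in E2, where it stood at 21.5 against 21.4 and 19.9. HOXA11 differed by -0.31 (SE 0.38, adjusted p = 0.715 in edgeR's quasi-likelihood test), and without clone 2 the value was 0.11. HOXB7, the most abundant HOX gene, stood at 69.9, 39.0, 55.0, 43.2, 54.5 and 43.8 CPM and differed by -0.11 (SE 0.15). That sign turned to 0.07 when each library's trend with GC content and length was removed. HOXD8 stood at 39.0, 26.9, 38.7, 32.7, 36.4 and 32.3 CPM and differed by 0.11 (SE 0.13). In HOXC, HOXC9 differed by -0.85 (SE 0.42) and HOXC10 by -1.56 (SE 0.48, adjusted p = 0.313 in edgeR's quasi-likelihood test, Benjamini-Hochberg adjusted), the latter on 14 and 12 counts in the parental line against 2 to 6 in the clones.

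All 4 clone libraries lay above both parental libraries for 4 HOX genes, HOXA5, HOXB4, HOXB9 and HOXD11, where 8.53% of all tested genes showed this. All 4 lay below for 3, HOXB2, HOXC9 and HOXC10, against 7.83% of all genes. HOXB9, a posterior HOXB gene, illustrates the first set, at 29.1 and 27.6 CPM in the parental line against 32.5, 35.5, 47.4 and 35.0 in the clones, and its log2 difference of 0.40 (SE 0.17) did not pass (adjusted p = 0.445 in edgeR's quasi-likelihood test, Benjamini-Hochberg adjusted). HOXD4 became the single called HOX gene when clone 1 was left out, at 1.00 (SE 0.32, adjusted p = 0.0462 in edgeR's quasi-likelihood test), in a fit that called 4.09% of genes. With all libraries its difference was 0.67 (adjusted p = 0.518 in the same test).

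The knockout clones were also compared singly. HOXA11 lay lowest and HOXB3 to HOXB5 highest in both libraries of clone 2, with differences that did not pass the test. Clone 1 against the parental line gave 0 of 31 called (1.35% of all genes), clone 2 against the parental line 0 (1.51%), and clone 2 against clone 1 also 0 (0.871%), in edgeR's quasi-likelihood test, Benjamini-Hochberg adjusted. DESeq2 called none either, where it called 3.25%, 4.77% and 2.36% of all genes, and nor did limma-voom, where it called 1.31%, 1.43% and 0.807%. At an unadjusted p below 0.05, clone 1 against the parental line gave 1 (HOXC10, lower), against 11.8% of all genes (4.66% lower). Clone 2 against the parental line gave 9 (20.2% of all genes), with HOXB3, HOXB4, HOXB9, HOXD4 and HOXD10 higher (11.6% of all genes) and HOXA11, HOXA13, HOXC9 and HOXC10 lower (8.61%). Clone 2 against clone 1 gave 2, HOXA11 lower (6% of all genes) and HOXB3 higher (6.12%), against 12.1% in both directions. Of the 4 tested stromal markers, VIM and COL3A1 were called lower in each clone than in the parental line, COL3A1 by -2.68 in clone 1 (adjusted p = 0.0190) and -1.66 in clone 2 (adjusted p = 0.0448) in the same edgeR test, and none was called between the clones. Their part in these HOX values was not tested.

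HOXA11 had the smallest p of the HOX genes in both comparisons of clone 2. It was lower than in the parental line by a log2 difference of -0.93 (SE 0.20, adjusted p = 0.0994 in edgeR's quasi-likelihood test, Benjamini-Hochberg adjusted) and lower than in clone 1 by -1.04 (SE 0.20, adjusted p = 0.112 in the same edgeR test). Against the parental line its adjusted p ran from 0.00402 to 0.164 over 11 alternatives, and it passed when either parental library was left out, at -0.99 without parental DMSO and -0.88 without parental E2. HOXB3, an anterior HOXB gene, stood at 20.2, 29.8, 26.5, 27.4, 45.0 and 38.2 CPM, highest in clone 2, with 0.75 (SE 0.21, adjusted p = 0.160 in edgeR's quasi-likelihood test, Benjamini-Hochberg adjusted) against the parental line. HOXB4 was also highest in clone 2, at 6.25, 7.56, 7.67, 8.81, 12.9 and 9.56 CPM, and HOXB5 stood at 16.1, 19.4, 17.1, 19.8, 27.1 and 21.6 CPM. HOXB3 and HOXB4 share 121 exon bases in GENCODE v29, so part of their counts may not be independent. For 7 HOX genes (HOXA5, HOXB3, HOXB4, HOXB5, HOXD3, HOXD10 and HOXD11) both clone 2 libraries lay above all 4 others (11.3% of all genes), and for 1, HOXA11, both lay below (11.9%).

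**Figure D3:**
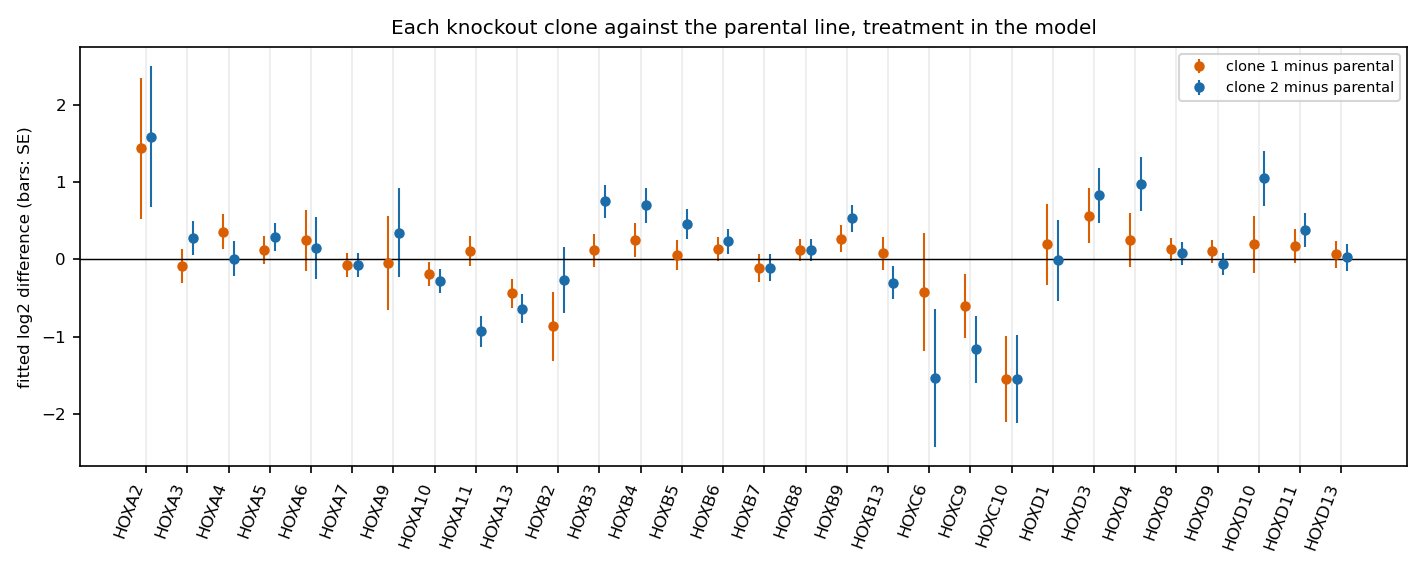
Fitted log2 difference from the parental line for clone 1 and clone 2 (vertical axis, points with SE bars) for the tested HOX genes reported (horizontal axis). HOXA11 is at 0.11 for clone 1 and -0.93 for clone 2, and wide bars mark genes with few counts such as HOXA2 and HOXC6.

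These clone comparisons depended on single libraries. Without the parental E2 library, 12 HOX genes were called in clone 2 against the parental line, where 42.7% of all genes were. The 12 were HOXA10 (-0.45, adjusted p = 0.0199 in edgeR's quasi-likelihood test), HOXA11, HOXA13, HOXB3, HOXB4, HOXB5, HOXB9, HOXC6, HOXC9, HOXD3, HOXD4 and HOXD10. The same omission gave 3 (HOXB3, HOXD3 and HOXD4) in clone 1, where 24.1% of all genes were called. Leaving out the E2 library of clone 2 gave 7 called HOX genes against the parental line (16.8% of all genes) and 2 against clone 1 (5.85%), HOXB3 and HOXD4. Without parental DMSO, HOXA11 alone was called in clone 2 (8.05%). In these fits the line with 1 library left is assumed to vary like the others.

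The next comparison set E2 against DMSO across the 3 lines, with a term for genotype. HOXB7, HOXB8 and HOXA13 lay lower in E2 in every line and HOXD4 lay higher, with differences that did not pass the test. None of the 31 tested HOX genes was called, where 1.13% of all genes were (176), in edgeR's quasi-likelihood test, Benjamini-Hochberg adjusted. Limma-voom called none (1.11%), and DESeq2 called 3 (HOXB7 and HOXB8 lower, HOXD4 higher), where it called 7.14% of all genes. At an unadjusted p below 0.05 in edgeR there were 7 HOX genes, against 20.4% of all genes. HOXA9 and HOXD4 were higher (12% of all genes were higher at that p) and HOXA13, HOXB7, HOXB8, HOXB13 and HOXD8 were lower (8.38%). The median log2 difference was -0.17 over the tested HOX genes and -0.02 over all genes, and 12 of 31 were above 0 (13 with total-count scaling), against 48.2% of all genes. The medians were -0.11 in HOXA, -0.23 in HOXB, -0.82 in the 3 HOXC genes and 0.10 in HOXD.

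HOXB8, a mid-cluster HOXB gene, came closest to the threshold. It stood at 35.0, 37.1 and 41.1 CPM in DMSO and 25.1, 27.9 and 25.3 CPM in E2, in parental line, clone 1 and clone 2, so the treatments did not overlap. Its log2 difference was -0.53 (SE 0.12, adjusted p = 0.101 in edgeR's quasi-likelihood test, Benjamini-Hochberg adjusted). HOXB7 was at 69.9, 55.0 and 54.5 CPM in DMSO against 39.0, 43.2 and 43.8 in E2, a log2 difference of -0.50 (SE 0.14, adjusted p = 0.148 in the same edgeR test). HOXA13 stood at 9.38, 6.59 and 5.46 CPM in DMSO against 5.42, 4.22 and 3.86 in E2, with -0.65 (SE 0.18, adjusted p = 0.154). HOXB13, its paralog in HOXB, stood at 7.26, 6.75 and 4.99 CPM in DMSO against 4.01, 4.87 and 3.89 in E2, with -0.57 (SE 0.22, adjusted p = 0.224). HOXD8 followed with -0.32 (SE 0.12, adjusted p = 0.221).

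HOXA10 was lower in E2 in each line, with log2 differences of -0.44 (parental), -0.09 (clone 1) and -0.11 (clone 2). The fitted difference was -0.21 (SE 0.13, adjusted p = 0.391 in edgeR's quasi-likelihood test, Benjamini-Hochberg adjusted). HOXA11 did not share a direction across lines, at 0.11, 0.09 and -0.11, and its fitted value was 0.05 (SE 0.37, adjusted p = 0.944 in the same edgeR test), turning to -0.02 without clone 1. At a p this size no equality of the treatments is shown. HOXA9 had 3, 11 and 9 counts in DMSO against 29, 13 and 22 in E2, with a fitted 1.49 (SE 0.52, adjusted p = 0.199).

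The same direction in all 3 lines was seen for 10 HOX genes that were lower in E2 (HOXA7, HOXA10, HOXA13, HOXB6, HOXB7, HOXB8, HOXB13, HOXC10, HOXD8 and HOXD9), where 25.1% of all tested genes were lower throughout. It was seen for 6 that were higher (HOXA3, HOXA9, HOXD3, HOXD4, HOXD10 and HOXD11), against 27.8% of all genes. All 3 E2 libraries lay below all 3 DMSO libraries for 7 HOX genes (HOXA7, HOXA13, HOXB7, HOXB8, HOXB13, HOXD8 and HOXD9; 10.7% of all genes) and above for 3 (HOXA3, HOXA9 and HOXD4; 13.5%). Among them HOXA7 had a small step. It stood at 11.4, 11.1 and 10.7 CPM in DMSO against 10.2, 9.53 and 9.80 in E2. The antisense gene HOXA-AS3 also covers 74.7% of the HOXA7 exon bases. HOXA-AS3 had 6 to 11 counts per library against 278 to 398 for HOXA7, and its part in the step was not tested.

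**Figure D4:**
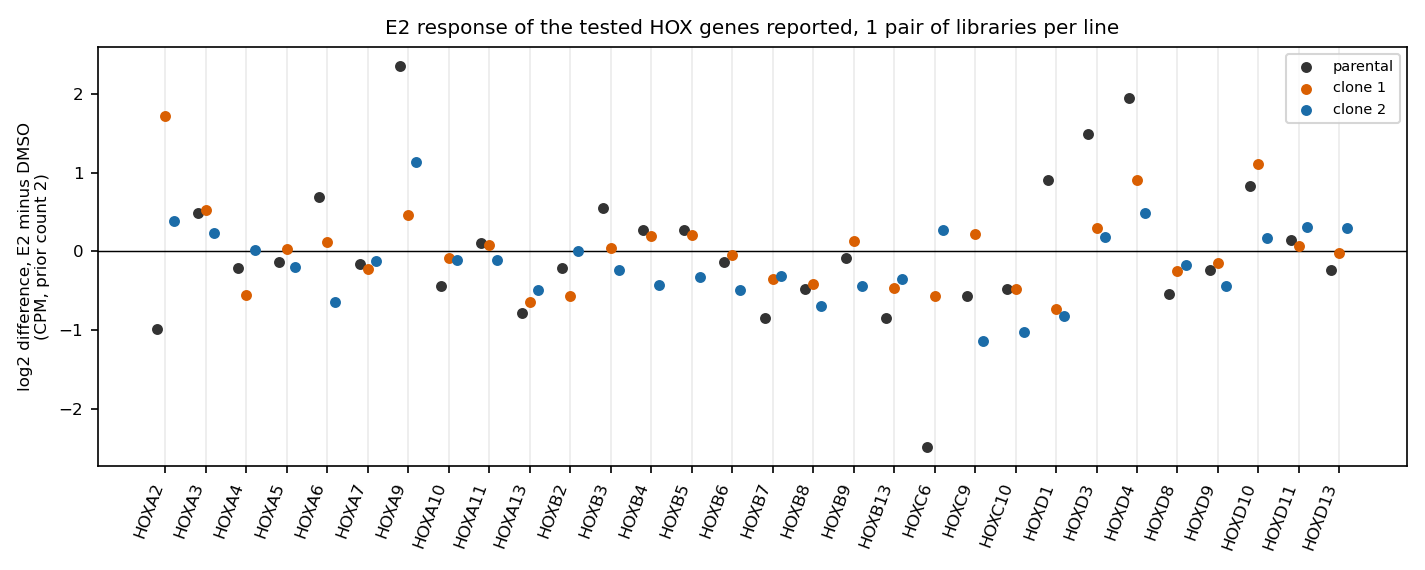
Log2 difference between the E2 and the DMSO library (CPM with a prior count of 2) for the tested HOX genes reported, 1 point per line. HOXB7, HOXB8 and HOXA13 lie below 0 in all 3 lines, HOXD4 above 0 in all 3, and the parental points of HOXD3 (1.49), HOXD4 (1.94) and HOXD1 (0.90) stand above those of both clones.

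The calls on E2 also changed with the lines used. Without clone 2, 6 HOX genes were called (HOXA13, HOXB7, HOXB13, HOXC6, HOXD3 and HOXD4), where that fit called 21.6% of all genes. Without clone 1, HOXD4 alone was called (1.17, adjusted p = 0.00919 in edgeR's quasi-likelihood test, Benjamini-Hochberg adjusted; 4.83% of all genes), and without the parental line none was (0.329%). With line as a replicate block none was called either (2.46%). With the block and a correction for GC content and length, HOXA13 (-0.65) and HOXB8 (-0.49) passed, where 9.9% of all genes did.

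HOXD3 and HOXD4, neighbours in the HOXD cluster, differed between the lines mostly in DMSO. From DMSO to E2, HOXD4 went from 2.72 to 10.7 CPM in the parental line, 4.995 to 9.46 in clone 1 and 9.42 to 13.2 in clone 2, on 81 to 399 counts. HOXD3 went from 1.61 to 4.65 CPM in the parental line, 3.91 to 4.80 in clone 1 and 4.88 to 5.53 in clone 2. For both genes parental DMSO was the lowest library, and the E2 libraries of the lines lay closer together than the DMSO libraries. The log2 step from DMSO to E2 for HOXD4 measured 1.94 (parental), 0.91 (clone 1) and 0.49 (clone 2). For HOXD3 it was 1.49, 0.29 and 0.18.

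**Figure D5:**
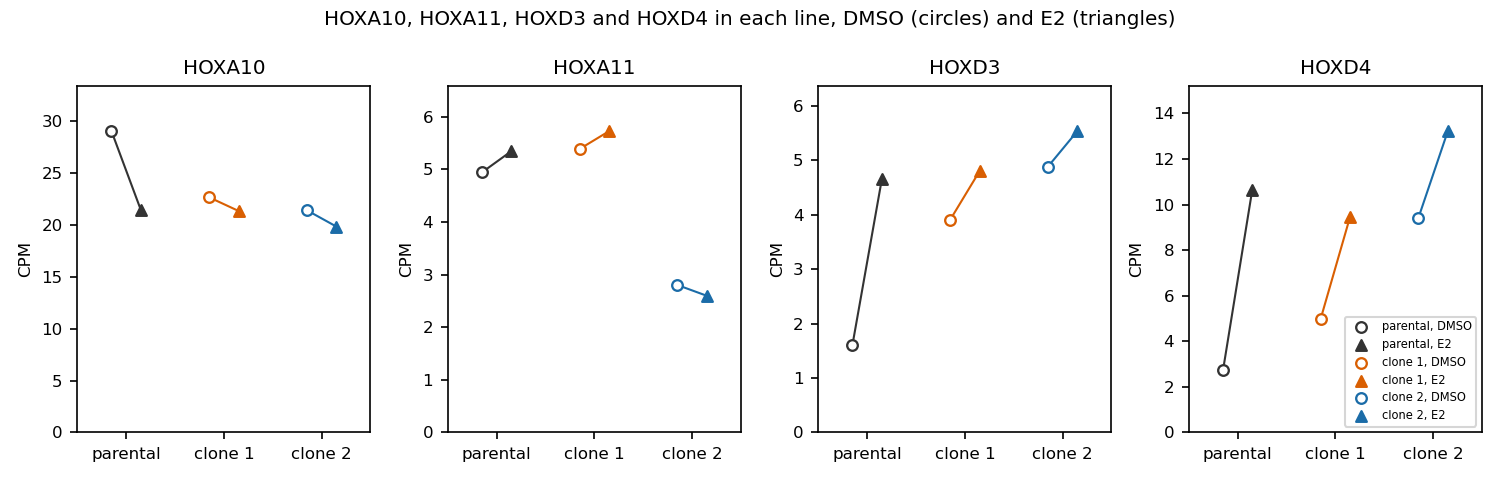
CPM of HOXA10, HOXA11, HOXD3 and HOXD4 (vertical axes from 0, each on its own scale) in each line, with the DMSO library (circle) joined to the E2 library (triangle). HOXA11 is lower in both clone 2 libraries, and HOXD3 and HOXD4 are lowest in parental DMSO.

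Start-site windows of these neighbours are given because their values moved together. They are from RefSeq (GRCh38.p14), on the plus strand, at chr2:176151300-176151599 for HOXD4 and chr2:176157057-176157356 for HOXD3, with CGGAAG in capitals.
HOXD4: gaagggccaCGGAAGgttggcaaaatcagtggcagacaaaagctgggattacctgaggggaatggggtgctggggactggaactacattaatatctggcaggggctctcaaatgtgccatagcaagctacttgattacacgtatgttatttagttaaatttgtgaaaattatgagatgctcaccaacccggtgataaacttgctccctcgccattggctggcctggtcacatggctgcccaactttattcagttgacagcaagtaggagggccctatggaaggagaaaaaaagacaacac
HOXD3: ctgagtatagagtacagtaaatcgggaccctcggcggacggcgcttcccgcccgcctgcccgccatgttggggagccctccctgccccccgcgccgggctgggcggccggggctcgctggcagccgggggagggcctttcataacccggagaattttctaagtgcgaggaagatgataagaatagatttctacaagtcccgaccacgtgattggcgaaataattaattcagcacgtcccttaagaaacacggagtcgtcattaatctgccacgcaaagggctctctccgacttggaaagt
HOXD4 holds 1 match and HOXD3 none. In GENCODE v29, 80.5% of the HOXD4 exon bases and 88.5% of those of HOXD3 are shared with 1 readthrough gene model, which is not a row of the count table, so transcripts that span both genes can add to both counts.

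Whether the E2 step differed between the clones and the parental line was tested as the interaction of treatment with genotype. No HOX gene was called, and none of all 15611 genes was (0%), in edgeR's quasi-likelihood test, Benjamini-Hochberg adjusted. DESeq2 called 0 HOX genes and 26 genes in all (0.167%), and limma-voom called none (0%). At an unadjusted p below 0.05 in edgeR there were 2 HOX genes, HOXD1 and HOXD3, both with a lower step in the clones, against 7.62% of all genes (2.67% lower). HOXD3 had an interaction of -1.29 (SE 0.47), HOXD4 of -1.31 (SE 0.62), HOXD1 of -1.82 (SE 0.72) and HOXA10 of 0.34 (SE 0.27, adjusted p = 0.693 in edgeR's quasi-likelihood test). For the first 3 the adjusted p was 0.617 in the same edgeR test. HOXD1, an anterior HOXD gene, had 14 (DMSO) and 35 (E2) counts for the parental line, 38 and 18 for clone 1 and 28 and 15 for clone 2. In GENCODE v29, 50.1% of its exon bases are shared with an opposite-strand gene that is not a row of the count table. Whether the counting used strand is not given, so reads of that gene may be among the HOXD1 counts.

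The labels name the line of each library, and with line as a replicate block 4 HOX genes passed for the interaction, where 15.8% of all genes did. All 4 were lower in the clones, HOXD4 at -1.27 (SE 0.30, adjusted p = 0.00108), HOXD3 at -1.29 (SE 0.37, adjusted p = 0.00789), HOXB3 at -0.66 (SE 0.22, adjusted p = 0.0243) and HOXD1 at -1.82 (SE 0.68, adjusted p = 0.0496), in edgeR's quasi-likelihood test, Benjamini-Hochberg adjusted. That fit leaves 1 residual degree of freedom and estimated an infinite prior degrees of freedom. Its p-values therefore rest on a spread pooled across genes and not on each gene's own. The parental step is also 1 pair of libraries. The parental step also tracked GC content over 14607 genes, with a Spearman rho of 0.33 across genes, against 0.13 in clone 1 and -0.01 in clone 2. The HOX genes tested had a median exon GC of 55.1% (43.7 to 65.4%), against 49.4% over all tested genes. With the block and a correction for GC content and length, HOXD4 (-1.47) and HOXD3 (-1.25) passed and HOXB3 (-0.20) and HOXD1 (-1.93) did not, where 9.74% of all genes passed.

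Parental DMSO was the lowest of the 6 libraries for 10 HOX genes (32.1% of all tested genes) and the highest for 10 (31.7%). The lowest set was HOXA6, HOXA9, HOXB3, HOXB4, HOXB5, HOXD1, HOXD3, HOXD4, HOXD10 and HOXD11. The highest set was HOXA7, HOXA10, HOXA13, HOXB2, HOXB7, HOXB13, HOXC6, HOXC9, HOXC10 and HOXD8. This library enters every contrast of the parental line, in both the knockout and the E2 comparison, so those values are not independent of each other.

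The genes around the HOX clusters were read from lists of cofactors, regulators, noncoding neighbours and targets. Of the cofactors that bind DNA with HOX proteins, none was called in the knockout or interaction comparison. MEIS1, one such partner, stood at 115 to 145 CPM and PKNOX1 at 43.6 to 56.4 CPM, and neither passed in the E2 comparison either.

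Of the Polycomb list 17 of 18 genes were tested and of the trithorax-type list all 14, and none was called in the knockout, E2 or interaction comparison. EZH2, the Polycomb methyltransferase, stood at 104 to 139 CPM. PHC1, a Polycomb subunit singled out after its values were seen, stood at 46.2, 71.2, 71.4, 81.4, 16.3 and 25.1 CPM. It was lower in clone 2 than in clone 1 by a log2 difference of -1.92 (SE 0.17, adjusted p = 0.0098) and than in the parental line by -1.50 (SE 0.17, adjusted p = 0.0169), in edgeR's quasi-likelihood test, Benjamini-Hochberg adjusted. Of the other upstream regulators 8 of 11 were tested and none was called, and the CDX genes CDX1 and CDX4 had 0 counts. CDX2, a homeodomain activator of HOX genes, had 102 and 130 counts in the parental line and 51, 32, 47 and 47 in the clones. All 4 clone libraries lay below both parental ones, but the log2 difference of -1.27 (SE 0.26) did not pass (adjusted p = 0.144 in edgeR's quasi-likelihood test), nor did that of clone 1 alone (adjusted p = 0.0589) or of clone 2 alone (adjusted p = 0.105). Of 18 noncoding or neighbouring genes listed by name, 17 had a row, 6 were tested and none was called. HAGLR, MIR10A and MIR7704 also have rows and share exon bases with HOXD3, HOXB4 and HOXD1. They were outside that list and were not read. HOXA10-AS, antisense to HOXA10, stood at 2.19 to 3.48 CPM and HOXA11-AS at 0.335 to 0.615 CPM, and HOTAIR, the noncoding RNA of the HOXC cluster, had at most 1 count in a library. These antisense genes share exon bases with HOXA10 (19.3% of its exons) and HOXA11 (23.8%). The kit was stranded per the labels, but whether the counting used strand is not given in the sources used here, so reads of the pairs may not be separated.

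Of 10 genes known as HOXA10 or HOXA11 targets in the endometrium, 6 were tested. PGR, the progesterone receptor and also a classical estrogen target, rose with E2 in each line, from 1.61 to 34.8, from 7.31 to 71.5 and from 2.66 to 62.6 CPM, with a log2 difference of 3.94 (SE 0.38, adjusted p = 0.00772 in edgeR's quasi-likelihood test, Benjamini-Hochberg adjusted). ITGB3, an integrin of the implantation window, stood at 36.5, 21.1, 22.0, 9.87, 36.8 and 10.1 CPM, with an E2 difference of -1.30 that did not pass (adjusted p = 0.0766 in the same edgeR test). EMX2, which HOXA10 is known to repress, stood at 141 to 181 CPM and did not pass in the E2 or the knockout comparison. No gene of this list was called in the knockout or interaction comparison.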

How the data were processed

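Gene-level tables of 6 libraries were used. The raw table that the authors deposited gives the count of every gene as a whole number, and the second table holds a normalized signal that, per the deposited values, is the raw count divided by 1 factor per library (0.926 to 1.19). Per the submitters' processing notes, HISAT2, SAMtools, Subread and DESeq2 were used on build hg19, with no roles or versions given. The strand setting and the annotation are not given in the sources used here. Column names that read DMOS and ER were taken as DMSO and E2.

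The counts were fitted with edgeR 4.0.16 in R 4.3.3 (TMM, filterByExpr on 4 groups, quasi-likelihood test, Benjamini-Hochberg over all 15611 tested genes, threshold 0.05). The knockout and E2 effects came from 1 model, and the line contrasts from a model of treatment and line. The first model, like that of the interaction, had no term for line, so libraries of a line entered it as independent. Single-library log2 differences used a prior count of 2. Exon lengths and GC content came from GENCODE v29 by symbol (90.2% of genes, all 39 HOX genes). Pairing comes from the line named in the labels: the difference between the clones correlated at 0.626 between treatments over genes. Alternatives were other scalings and filters, DESeq2 1.42.0, limma-voom (limma 3.58.1), a GC and length correction, line as a block and each library or line left out. Tests were run on simulated data in which libraries were drawn independently, with no effect shared within a line. That check therefore does not cover the pairing of libraries by line.

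The HOX genes and all lists were chosen with earlier results of these data known. HOXA10, HOXA11, the most abundant gene of each cluster, called genes and genes at 0 were named by rule, and the other genes described were chosen after their values were seen. Results for some genes of the lists are not reported here. Intervals and floors cover counting error only.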

Additional observations from a re-analysis of the deposited data

Results flagged for a closer look

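The E2 step differed between the clones and the parental line for 4 HOX genes in the test of that difference with line as a replicate block, where 15.8% of all genes passed. The 4 of 31 tested HOX genes are a smaller share than that. The step was lower in the clones by a log2 difference of -1.27 for HOXD4, -1.29 for HOXD3, -0.66 for HOXB3 and -1.82 for HOXD1. With the block and the GC and length correction, HOXB3 (-0.20) and HOXD1 (-1.93) did not pass. None of the 4 passed without the block. Without the block, DESeq2 and limma-voom did not call them either. In each of the 4, the parental step was higher than that of clone 1 and clone 2, at 1.94, 0.91 and 0.49 for HOXD4, 1.49, 0.29 and 0.18 for HOXD3, 0.56, 0.04 and -0.24 for HOXB3 and 0.90, -0.72 and -0.82 for HOXD1. These parental values come from 1 pair of libraries.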

How the results depend on the processing

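With all libraries, no HOX gene was called in any of the 6 comparisons under other scalings, other filters, limma-voom or the GC and length correction alone. DESeq2 called 3 for E2 and 0 elsewhere. With line as a replicate block the count went from 0 to 4 for the interaction and stayed at 0 for E2 and, with line as a random effect (consensus correlation 0.113), for the knockout. With the block and the GC and length correction it was 2 for E2 and 2 for the interaction. Leaving out 1 clone or the parental line gave 0 to 1 for the knockout and 0 to 6 for E2, and leaving out 1 library gave 0 to 3 for clone 1 against the parental line, 0 to 12 for clone 2 against it and 0 to 2 between the clones. Over all genes the knockout count ran from 40 (total-count scaling) to 118 (GC and length correction) and was 460 in DESeq2 and 631 to 996 with a clone left out. The E2 count was 139 to 396, 384 with the block, 1546 with block and correction, 1115 in DESeq2 and 49 to 3353 with a line left out. For the interaction 2470 genes passed with the block, 1521 with block and correction and 26 in DESeq2. With all libraries kept, the count over all genes was 148 to 527 for clone 1 against the parental line (211 in edgeR as described), 133 to 745 for clone 2 (236) and 63 to 369 between the clones (136). Of 469 log2 differences of named genes under alternatives, 431 kept direction and side of the threshold, 34 newly passed and 4 changed sign: HOXA10 between the clones (from -0.18 to 0.0016, the last without clone 1 in E2), HOXA11 for the knockout (-0.94 without clone 1, 0.11 without clone 2) and for E2 (-0.016 without clone 1, 0.10 without clone 2), and HOXB7 for the knockout (0.067 with the GC and length correction). The cause was not tested. The interaction could not be fitted without a clone. The parental line has 1 library per treatment, and HOXC genes have too few counts for small differences to be detectable.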
